A study of Mus musculus with 12 samples.

Results

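The comparison is between mouse embryonic fibroblasts labelled as Chaf1a knockdown and their controls, 6 days after the reprogramming factors were switched on. It sets 6 of the series' 12 arrays against each other, the 3 titled as Chaf1a knockdown and the 3 titled as renilla control at day 6. The other 6 are the same groups at day 3, and the fit also used them to estimate the spread. The cells came from E13.5 embryos of the strain C57Bl/6 -129X1/SvJ with the genotype Col1a1::tetOP-OKSM ; R26-M2rtTA, so every group carries a doxycycline-inducible cassette for OKSM at Col1a1, that is Pou5f1 (Oct4), Klf4, Sox2 and Myc, and the transactivator that drives it. Cells of all groups received a retroviral hairpin, against CAF-1 or against Renilla luciferase, a gene mouse cells lack, and then doxycycline, in serum-containing embryonic stem cell medium with the cytokine LIF. The labels do not give the hairpin sequence, and do not tell whether the 3 replicates were separate embryos, cultures or neither, and a p-value here measures the spread between these samples alone.

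Chaf1a encodes the large subunit of chromatin assembly factor 1 (CAF-1), which places histones H3 and H4 on newly copied DNA. In reprogramming of fibroblasts, mesenchymal genes are switched off and epithelial genes such as Cdh1 come on early, while the cells' own pluripotency genes, with Nanog among them, come on later and in few cells. Bulk arrays average over all cells, so fewer cells of a type and less RNA per cell cannot be told apart. Of 22180 genes with a probe set of their own, 17860 passed the filter on low signal and were tested. Values are log2 of the deposited intensity, and a fold change is knockdown minus control on that scale.

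At day 6, 7 of the 17860 genes (0.0392%) were higher in the knockdown at an adjusted p under 0.05 in limma with Benjamini-Hochberg adjustment, and 0 (0.0%) were lower. The 7 were the pluripotency genes Nanog, Sall4 and Tdgf1, the epithelial genes Cdh1 and Spint1, the carbonic anhydrase gene Car2 and the transporter gene Slc35f2. Their fold changes ran from 0.63 to 1.88 on the log2 scale. In each of them all 3 knockdown arrays lay above all 3 control arrays, as they did in 5.0% of all genes. The 7 were picked for small p-values in this same comparison, so the lack of overlap is no separate support. At an unadjusted p under 0.05 the same fit gave 384 genes higher (2.15%) and 409 lower (2.29%). The count of 7 depended on single arrays. With control replicate 1, 2 or 3 left out it was 3, 2 and 4, respectively. It was 4 without replicate 1 of both groups, 3 of them among the 7. Without replicate 2 of both it was 1, Nr0b1, which is not among the 7, so all 7 calls were lost. Without replicate 3 of both it was 0, and 407 genes were higher at an unadjusted p under 0.05.

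**Figure D1:**
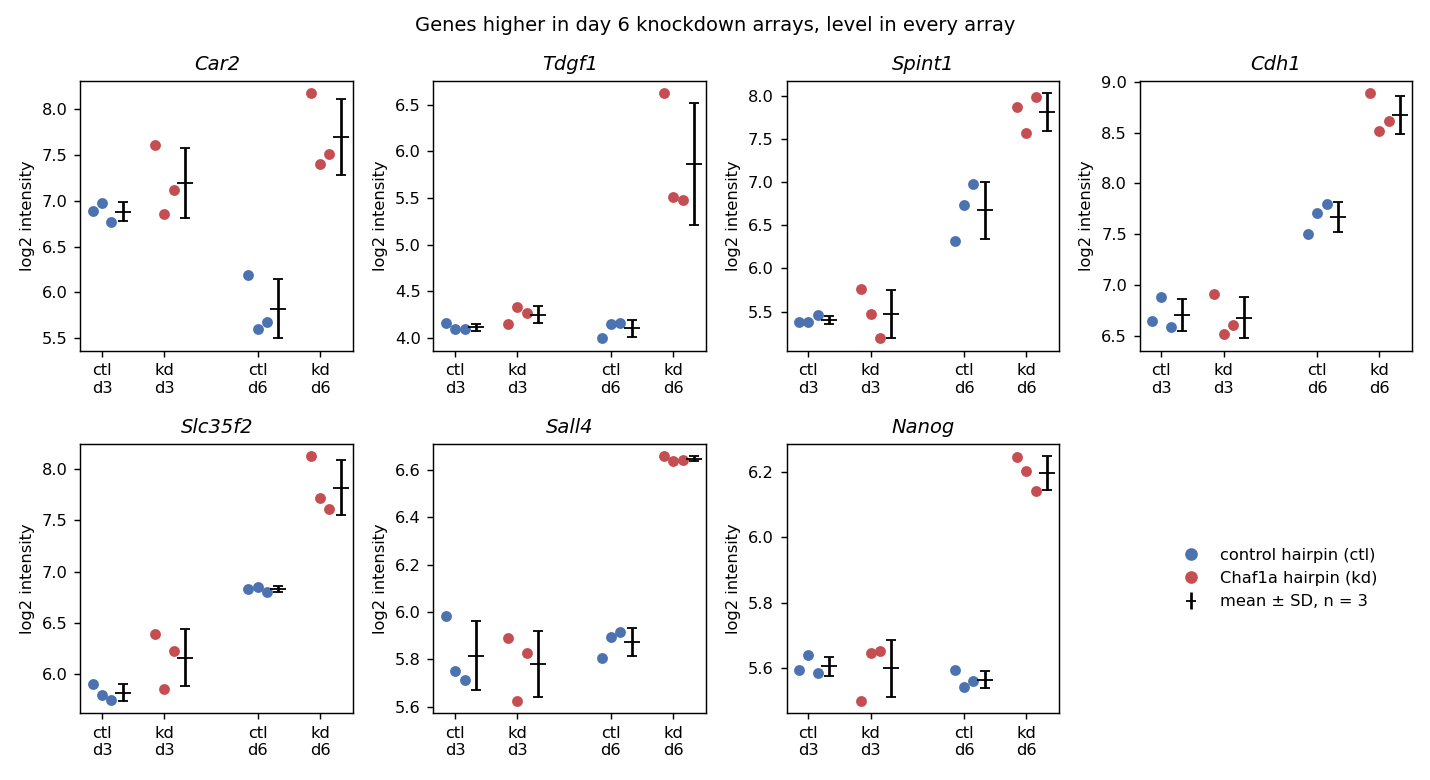
Log2 intensity of the 7 genes past the threshold in each of the 12 arrays, by hairpin and day, with the mean of each group of 3. At day 6 the 3 knockdown arrays of each gene lie above the 3 control arrays, while at day 3 the fold changes of these genes lie between -0.04 and 0.34.

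The probe set for the targeted gene did not separate the groups. Chaf1a read 7.06, 7.30 and 7.31 in control replicates 1 to 3 and 7.04, 7.16 and 7.11 in the knockdown. The knockdown array was the lower of each of the 3 pairs, and the groups overlapped. The fold change was -0.12 (95% interval -0.32 to 0.09) with an adjusted p of 0.999 in limma. Chaf1b, the middle subunit, read 8.51, 8.93 and 8.86 in control and 8.46, 8.67 and 8.58 in the knockdown, a fold change of -0.20 (-0.42 to 0.02) that did not pass either (adjusted p = 0.999). Rbbp4, the histone-binding subunit shared with other complexes, stood at 0.03. No difference in Chaf1a RNA beyond the spread was shown at day 6, so the groups are called by their labels. The median of the 3 CAF-1 subunits was -0.12 at day 6 and -0.29 at day 3. Over all genes it was -0.01 at each day, and 0 genes passed at day 3.

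None of the cassette factors separated the groups. Pou5f1, Sox2, Klf4 and Myc had fold changes of 0.05, 0.02, 0.04 and -0.04, and none of these 4 passed (adjusted p = 0.999 for each). The 95% intervals ran from -0.08 to 0.19 for Pou5f1, -0.18 to 0.22 for Sox2, -0.09 to 0.17 for Klf4 and -0.23 to 0.15 for Myc. Which part of a factor's signal comes from the cassette and which from the cell's own gene was not tested.

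RefSeq promoter windows were found for 4 of the 7 genes and are shown because these genes were higher in the same comparison. Each is the 250 bases before a start site on the gene's own strand, 5′ to 3′, in build GRCm38.p6. Capitals mark a Sox-Oct composite motif (CATTGT and ATGCAAA with 1 base between them), a GC box (GGGCGG) or an E-box of the type bound by Snai and Zeb repressors (CACCTG), searched on both strands. Nanog lies at chr6:122707239-122707488 on the + strand, Tdgf1 at chr9:110946159-110946408 on the - strand, Spint1 at chr2:119237110-119237359 on the + strand and Slc35f2 at chr9:53771285-53771534 on the + strand.
Nanog: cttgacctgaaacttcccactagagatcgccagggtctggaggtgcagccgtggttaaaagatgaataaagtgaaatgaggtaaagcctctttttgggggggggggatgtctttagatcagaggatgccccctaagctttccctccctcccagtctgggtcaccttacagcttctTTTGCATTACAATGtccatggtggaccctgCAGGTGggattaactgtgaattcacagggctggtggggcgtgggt
Tdgf1: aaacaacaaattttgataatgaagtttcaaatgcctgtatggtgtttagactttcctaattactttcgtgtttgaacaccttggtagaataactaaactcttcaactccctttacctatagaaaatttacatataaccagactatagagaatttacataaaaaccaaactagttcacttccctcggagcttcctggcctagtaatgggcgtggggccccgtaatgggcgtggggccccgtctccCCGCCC
Spint1: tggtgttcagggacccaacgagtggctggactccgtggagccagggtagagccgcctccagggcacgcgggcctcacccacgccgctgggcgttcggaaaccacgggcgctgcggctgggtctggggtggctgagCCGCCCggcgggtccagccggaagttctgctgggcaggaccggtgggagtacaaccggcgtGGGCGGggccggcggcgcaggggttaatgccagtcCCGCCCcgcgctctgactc
Slc35f2: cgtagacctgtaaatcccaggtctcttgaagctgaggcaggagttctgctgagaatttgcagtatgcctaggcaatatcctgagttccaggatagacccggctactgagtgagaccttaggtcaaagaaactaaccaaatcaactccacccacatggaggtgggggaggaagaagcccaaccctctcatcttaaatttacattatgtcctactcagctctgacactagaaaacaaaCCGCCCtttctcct
In the Nanog window the composite motif is on the reverse strand and its first base is at -75 from the start site. That motif was in 2 of 32851 promoter windows of the same length (0.00609%), both of them windows of Nanog, and so in none of the other 3 genes shown. Only the exact letters with 1 free base were searched, so near matches in other windows were not counted. The GC box was in 32.7% of windows, with 3 matches in Spint1, 1 in Tdgf1 and 1 in Slc35f2. The E-box was in 17.2% of windows and of the 4 shown only in Nanog, with 1 match. A match is a description of the letters and says nothing of binding.

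Among pluripotency transcription factors, Nanog and Sall4 rose. Nanog, the homeobox factor that sustains self-renewal of embryonic stem cells, read 5.59, 5.54 and 5.56 in control and 6.24, 6.20 and 6.14 in the knockdown. Both groups were tight, at 5.57 ± 0.03 and 6.20 ± 0.05 (SD, n = 3), and they did not overlap. Nanog's fold change was 0.63 (SE 0.06, 95% interval 0.50 to 0.76), or 1.55-fold, with an adjusted p of 0.00261 in limma. Sall4, a zinc-finger factor of the same network, read 5.81, 5.89 and 5.92 in control and 6.66, 6.64 and 6.64 in the knockdown. Its means were 5.87 ± 0.06 and 6.65 ± 0.01 (SD, n = 3), a fold change of 0.78 (SE 0.08) or 1.71-fold, with an adjusted p of 0.00589 in limma. Sall4 has a second, dimmer probe set with a mean level of 3.83 and a fold change of -0.06, and with the mean of both probe sets the call was lost. Its level is under the 30th percentiles of the arrays (4.30 to 4.38) that set the low-signal filter.

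The pluripotency-associated ligand and receptor genes included 1 that rose, by more but less evenly. Tdgf1 encodes Cripto, the co-receptor of the growth factor Nodal and a surface protein of embryonic stem cells. It read 3.99, 4.15 and 4.16 in control and 6.62, 5.51 and 5.47 in the knockdown. Knockdown replicate 1 was the highest array of all, and the pair differences were 2.63, 1.36 and 1.32. The fold change was 1.77 (SE 0.22, 95% interval 1.28 to 2.26), or 3.41-fold as measured, with an adjusted p of 0.0130 in limma. Tdgf1 was under the low-signal filter in the control and day 3 arrays and entered the test through the 3 day 6 knockdown arrays alone, so it had to differ to be tested, and its fold and p describe a gene admitted by the group where it is high. Against the filter level in the control arrays, a log2 value of 4.37, the knockdown was at least 2.84-fold higher. Nodal itself read 5.02, 5.04 and 5.22 against 5.47, 5.48 and 5.34, a fold change of 0.34 that did not pass (adjusted p = 0.292).

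Cdh1 and Spint1 rose among the epithelial genes. Cdh1 encodes E-cadherin, the adhesion molecule of epithelial and pluripotent cells. It read 7.50, 7.71 and 7.79 in control and 8.89, 8.52 and 8.61 in the knockdown, with means of 7.67 ± 0.15 and 8.67 ± 0.19 (SD, n = 3). The fold change was 1.00 (SE 0.13, 95% interval 0.73 to 1.28), or 2.01-fold, with an adjusted p of 0.0130 in limma. A dimmer Cdh1 probe set with a mean level of 4.10, also under those percentiles (4.30 to 4.38), had a fold change of 0.29. Spint1 encodes a membrane-bound inhibitor of the serine proteases hepsin and matriptase. It read 6.32, 6.73 and 6.98 in control and 7.88, 7.57 and 7.99 in the knockdown. Here the control arrays had the wider spread, at 6.67 ± 0.33 against 7.81 ± 0.22 (SD, n = 3). Spint1 had a fold change of 1.14 (SE 0.17), or 2.20-fold, with an adjusted p of 0.0435 in limma. With the replicate number as a block the adjusted p for Spint1 was 0.0820 and its call was lost, which left 6 genes higher (0.0336%) and 0 lower, or 441 (2.47%) and 487 (2.73%) at an unadjusted p under 0.05.

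Car2 and Slc35f2 belong to neither group. Car2 encodes carbonic anhydrase 2, the cytosolic enzyme that interconverts carbon dioxide and bicarbonate. It read 6.19, 5.60 and 5.67 in control and 8.18, 7.41 and 7.51 in the knockdown. Replicate 1 was the highest array of each group, and the 3 pair differences were alike at 1.99, 1.81 and 1.84. The fold change was 1.88 (SE 0.22, 95% interval 1.40 to 2.36), or 3.68-fold, with an adjusted p of 0.0100 in limma. Of the other 12 carbonic anhydrase genes tested, none passed, and the median of the 13 was -0.01, the same as over all 17860 genes.

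Slc35f2, a member of the solute carrier family 35, read 6.83, 6.85 and 6.80 in control and 8.13, 7.71 and 7.61 in the knockdown. This is a fold change of 0.99 (SE 0.14), or 1.99-fold, with an adjusted p of 0.0291 in limma. Slc35f2 kept its call in 1 of the 9 fits that left out arrays. Spint1 kept it in 2, Cdh1 and Tdgf1 in 4 each, Car2 in 5, Sall4 in 6 and Nanog in 7. Of 24 Slc35 genes tested, Slc35f2 was the 1 that passed, and the list's median was 0.00.

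The 7 genes were set against day 3, where 0 of 17860 genes passed in either direction. At day 3 their fold changes lay between -0.04 and 0.34, with 4 of the 7 above 0. Nanog stood at 5.61 in control and 5.60 in the knockdown at day 3, and at 5.57 and 6.20 at day 6. Sall4 stood at 5.82 and 5.78 at day 3, and Tdgf1 at 4.11 and 4.25. In these 3 genes the control means moved by 0.06 or less between the days, and the knockdown means by 0.60 to 1.62. Cdh1, Spint1 and Slc35f2 had higher means at day 6 in both groups. Cdh1 differed between the days by 0.96 in control and 1.99 in the knockdown, Spint1 by 1.27 and 2.34, and Slc35f2 by 1.01 and 1.66. Car2 differed by -1.06 in control and by 0.50 in the knockdown.

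The difference between the day 6 and day 3 effects was tested for every gene, and 0 of 17860 passed in limma (458 were higher and 452 lower at an unadjusted p under 0.05, 2.56% and 2.53%). Nanog came nearest, with a difference of 0.64 (95% interval 0.46 to 0.82) and an adjusted p of 0.0978. Sall4 had 0.81 (0.55 to 1.07) with an adjusted p of 0.137, and Cdh1 1.03 (0.65 to 1.41) with 0.428. Tdgf1, Car2, Spint1 and Slc35f2 had adjusted p-values of 0.786, 0.853, 0.874 and 0.918. No gene was therefore shown to respond at day 6 and not at day 3. Tdgf1 was the 1 gene that passed this test without knockdown replicate 1, and again without replicate 1 of both groups.

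**Figure D2:**
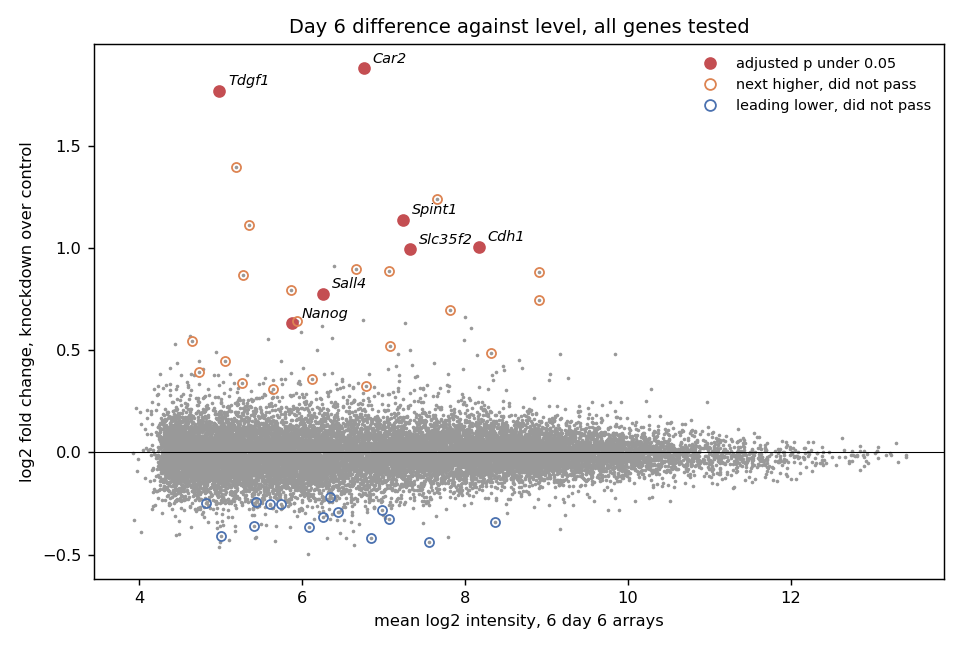
Fold change at day 6 (knockdown minus control, log2) of the 17860 genes against their mean log2 intensity, with the 7 genes past the threshold marked. The genes at 0.5 or more number 33 and lie above the line of no change, while the lowest fold change of any gene is -0.50.

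The core pluripotency network was higher in more members than the genes at large, with most differences small. Members of this and the other lists were chosen with earlier results of these data known. Their counts beside the shares of all genes are therefore descriptions and no separate support. Of 51 members tested, 3 rose, 0 fell and 48 did not pass. The sign was positive in 35 of the 51, against 46.2% of all genes, and the median fold change was 0.10 against -0.01 for all genes. In 21 of the 51 the 3 knockdown arrays lay above the 3 controls, against 5.0% of all genes, and 16 had an unadjusted p under 0.05 in that direction, against 2.15%. The median over members was 0.13, 0.12 and 0.12 in pairs 1, 2 and 3. At day 3 it was -0.01. Leaving out Tdgf1, which only the knockdown arrays brought in, 2 of 50 rose, 34 were positive, 20 did not overlap and the median was 0.09.

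By role, 2 of 23 transcription factors, 1 of 12 ligand, receptor or signalling genes and 0 of 16 other effectors rose, with medians of 0.12, 0.02 and 0.15. Nr0b1, an orphan nuclear receptor of the stem cell network, had the largest difference among those that did not pass. It read 4.44, 4.55 and 4.50 in control and 5.53, 6.81 and 5.32 in the knockdown, a fold change of 1.39 (SE 0.27, adjusted p = 0.262). Knockdown replicate 2 stood apart for this gene, where replicate 1 did for Tdgf1. Nr0b1 passed without knockdown replicate 2 and without replicate 2 of both groups. Utf1, a chromatin-bound factor of undifferentiated cells, read 4.93, 4.77 and 4.84 against 6.29, 5.54 and 5.31 (0.87, adjusted p = 0.285). Nr5a2, a nuclear receptor, had a fold change of 0.45 (adjusted p = 0.262).

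None of the other members named here passed. Fbxo15, a stem cell F-box gene, had a fold change of 0.65 with no overlap between the groups, but with a wide interval of 0.13 to 1.16. Sall1 had 0.39, Zscan10 0.33, Tfcp2l1 0.27, Esrrb 0.25 and Zfp42 (Rex1) 0.12. Lin28a stood at 0.03 and Dppa5a at -0.02, while Klf2 was at -0.11 and Tcl1 at -0.22. Of the 7 markers chosen for pluripotent cells, 2 lay above the array's median signal in all 6 day 6 arrays. Esrrb, Zfp42 and Dppa5a lay below it in all 6. The summed log2 level of the 7 was 34.1 to 34.6 in control and 37.8 to 40.0 in the knockdown. The higher sum rests mainly on Tdgf1, Utf1, Sall4 and Nanog. Of these, Tdgf1, Sall4 and Nanog are already among the genes past the threshold, so the sum is no separate support.

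Epithelial genes showed the same direction, with Cdh1 and Spint1 past the threshold. Of 54 members tested, 2 rose, 0 fell and 52 did not pass. The sign was positive in 42 (46.2% of all genes), the median fold change was 0.08 and 17 of 54 had 3 knockdown arrays above the 3 controls (5.0% of all genes). Esrp1 passed the filter through the knockdown arrays alone, and without it 41 of 53 were positive and 16 did not overlap. The pair medians were 0.14, 0.12 and 0.09, and the day 3 median was 0.01. Genes of membrane proteases and their inhibitors had the highest median of the 5 epithelial roles, 0.55 over 5 genes, of which Spint1 rose. St14 encodes matriptase, the protease that Spint1 inhibits. It read 7.19, 7.46 and 7.75 in control and 8.35, 8.01 and 8.14 in the knockdown, a fold change of 0.70 (adjusted p = 0.262). Spint2, a second inhibitor of this type, had 0.55, Prss8 0.11 and Tmprss2 -0.12.

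Of 14 adhesion genes 1 rose, and 12 had a positive sign (46.2% of all genes) with a median of 0.07. Epcam, an adhesion molecule of epithelial and pluripotent cells, read 4.89, 4.67 and 4.81 against 5.36, 6.46 and 5.89. The groups did not overlap, and the pair differences were 0.47, 1.79 and 1.08. Its fold change was 1.11 (SE 0.19) with an adjusted p of 0.148, which did not pass. Epcam passed with array weights, with median centring, without knockdown replicate 1 and without replicate 1 of both groups. Dsp (desmoplakin, which ties desmosomes to keratin filaments) had 0.64 and Dsc2 (a desmosomal cadherin) 0.36, neither of which passed.

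None of 15 tight junction genes, 5 keratins or 15 regulators passed. Their medians were 0.08, 0.08 and 0.06. The tight junction genes F11r, Cldn4 and Cldn6 had fold changes of 0.38, 0.33 and 0.27. Lsr, a protein of tricellular junctions, has a pair of probe sets that disagree. The brighter one, used here, had -0.08, and the dimmer one, with a mean level of 5.41, had 0.65 and passed when all probe sets were fitted together (adjusted p = 0.0320 in limma). Krt18 had 0.36, whereas its partner Krt8 had 0.08 and Krt19 0.04. Among regulators, Tfap2c had 0.55 (adjusted p = 0.284), the splicing factor Esrp1 0.41 and the transcription factor Grhl2 0.21.

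**Figure D3:**
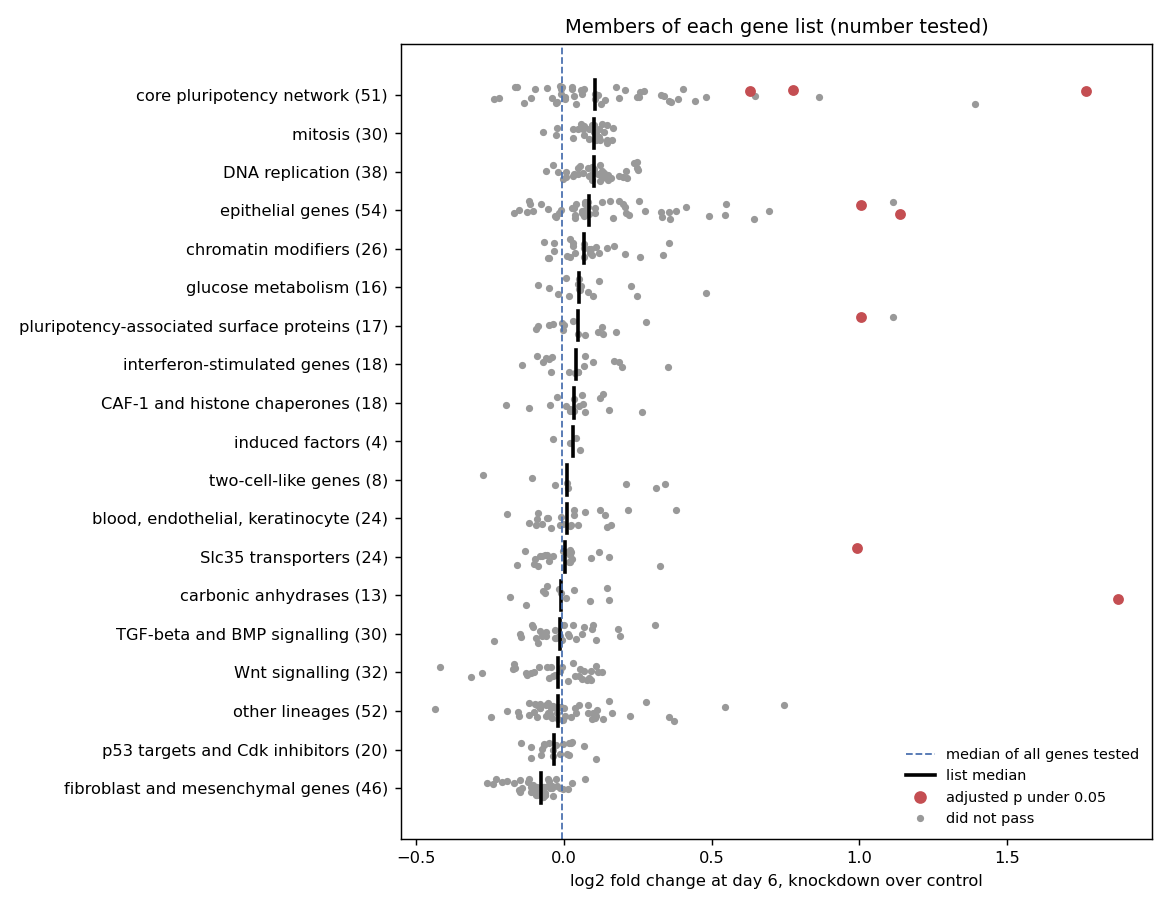
Fold changes at day 6 (knockdown minus control, log2) of the members of each gene list, with the list's median and the number tested. The pluripotency and epithelial lists have medians of 0.10 and 0.08 with a tail of high members, and the fibroblast list has a median of -0.08 with 43 of 46 members below 0.

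Beyond the 7, the 20 genes with the smallest p-values among those higher with no overlap did not pass, with adjusted p-values from 0.148 to 0.294 in limma. Their fold changes ran from 0.31 to 1.39. Trh, the gene of thyrotropin-releasing hormone, read 6.80, 6.96 and 7.37 against 8.02, 8.78 and 8.03 (1.24, adjusted p = 0.204). It was far brighter at day 3, at 9.59 in control and 9.48 in the knockdown. Plet1, a surface protein of trophoblast and other epithelial progenitors, read 8.44, 8.49 and 8.70 against 9.48, 9.27 and 9.12 (0.75, adjusted p = 0.148). Enpp3, an ectonucleotide phosphodiesterase, had 0.90, Tgm1, a transglutaminase of the cornified envelope, 0.89, and Bex1 0.88. Cyp4f39, a cytochrome P450, had 0.79, and Atp2a3, a calcium pump, 0.52. Alg13 and Chst8, both enzymes of glycan synthesis, had 0.48 and 0.36, and Hook1, Nrtn and As3mt 0.39, 0.33 and 0.31.

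The 27 genes, those that passed and these 20, were not spread evenly over the replicates. Knockdown replicate 1 was the highest array in 18 of the 27, replicate 2 in 6 and replicate 3 in 3. Control replicate 1 was the lowest array in 15. The largest pair difference fell in pair 1 for 22 genes, in pair 2 for 5 and in pair 3 for 0. Without replicate 1 of both groups 4 genes passed, Car2, Nanog and Tdgf1 with Epcam.

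**Figure D4:**
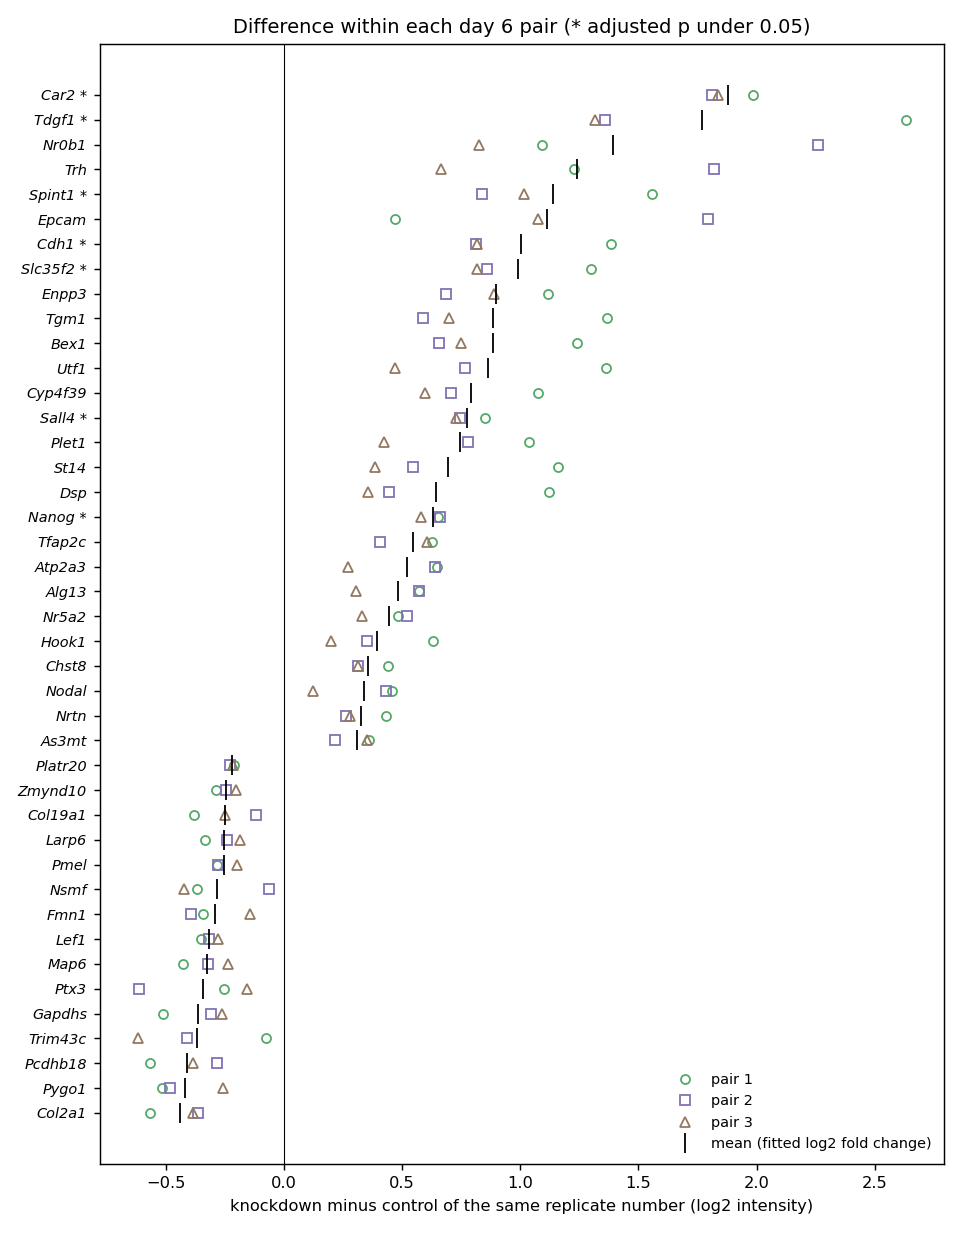
Difference between knockdown and control within each of the 3 replicate pairs (log2) for the 27 higher genes and the 15 lower ones. Pair 1 is the largest for 22 of the 27 higher genes. In each of these 42 genes the groups do not overlap, so the sign must be the same in the 3 pairs.

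No gene passed in the lower direction, and the largest differences there were smaller. The 15 lower genes with the smallest p-values and no overlap had fold changes from -0.44 to -0.22 and adjusted p-values from 0.148 to 0.670 in limma. Col2a1, the cartilage collagen, read 7.93, 7.69 and 7.73 in control and 7.36, 7.32 and 7.35 in the knockdown (-0.44, SE 0.08, adjusted p = 0.148). Lef1, a transcription factor of Wnt signalling, read 6.45, 6.45 and 6.35 against 6.10, 6.14 and 6.07 (-0.31, adjusted p = 0.262). Pygo1, a partner of beta-catenin, read 7.09, 7.06 and 7.04 against 6.57, 6.58 and 6.78 (-0.42, adjusted p = 0.292). At day 3 these 3 genes stood at -0.30, -0.17 and -0.21. Ptx3, a secreted pentraxin, had -0.34 at day 6, and Fmn1, an actin-nucleating formin, -0.29. Of 32 Wnt genes tested, 0 passed, 1 was higher (2.15% of all genes) and 3 were lower (2.29%) at an unadjusted p under 0.05, and the median was -0.02. The secreted Wnt inhibitor Wif1 had -0.28.

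Fibroblast genes were mostly a little lower, and none passed. Of 46 members tested, 0 rose and 0 fell, 43 had a negative sign (53.8% of all genes did) and the median was -0.08. In 9 of the 46 all knockdown arrays lay below all control arrays, against 5.57% of all genes. All 9 cytoskeletal genes were negative, with a median of -0.11, and so were all 12 transcription factors (-0.07) and 22 of 25 matrix and adhesion genes (-0.07). Myl9, a myosin light chain of contractile cells, read 10.75, 10.63 and 10.54 against 10.42, 10.42 and 10.36 (-0.24, unadjusted p = 0.00497). Cnn1 had -0.21, Tpm2 -0.19, Cdh2 (N-cadherin) -0.15, Snai2 -0.17, Twist1 -0.06 and Zeb1 -0.01. Cd44, Fn1 and Thbs2 were the 3 with a positive sign. The mean level over members was 9.42, 9.19 and 9.15 in control and 9.33, 9.12 and 9.04 in the knockdown, so the arrays of 1 group differed more than the groups did. Within pairs the medians were -0.09, -0.09 and -0.08, and without pair 1, 2 or 3 the median was -0.08, -0.08 and -0.07 with 40, 40 and 37 of 46 negative. Leaving out single arrays changed more. Without control replicate 1 the median was -0.00 and 25 of 46 were negative, and without knockdown replicate 3 it was -0.03 with 30 negative.

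Proliferation genes were a little higher, again with none past the threshold. Of 38 DNA replication genes 34 had a positive sign and the median was 0.10, and of 30 mitosis genes 27 were positive with a median of 0.10. The sign was positive in 46.2% of all genes. All knockdown arrays lay above all controls in 1 of the 38 and 2 of the 30, against 5.0% of all genes. The replication factors Cdt1 and Mcm10 had fold changes of 0.25 each and Rrm2, a subunit of ribonucleotide reductase, 0.22. The pair medians of the replication genes were 0.22, 0.03 and 0.09, and their mean level was 8.14, 8.40 and 8.29 in control against 8.34, 8.43 and 8.38 in the knockdown. Control replicate 1 was the lowest array. Without it the medians were 0.05 for replication, with 26 of 38 positive, and 0.02 for mitosis, with 21 of 30 positive.

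Chromatin genes gave no call among 26 modifiers and 18 members of the histone chaperone list. The modifiers had 21 positive signs (46.2% of all genes were positive) and a median of 0.07. In 6 of the 26 all knockdown arrays lay above all controls, against 5.0% of all genes. Jarid2, a subunit of the repressive complex PRC2, read 8.10, 8.21 and 8.21 against 8.65, 8.51 and 8.42 (0.36, adjusted p = 0.344). Phf19, another PRC2 partner, had 0.33, the DNA methyltransferase Dnmt3b 0.26 and the DNA demethylase Tet1 0.21. Among chaperones the highest was Nasp, which binds histone H3, at 0.27. Genes of the two-cell embryo, of which 8 of 18 were bright enough to test, had a median of 0.01, with Zscan4c at 0.31 and Zscan4d at -0.27.

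Signalling and stress lists stood near the median of all genes. The medians were -0.01 for 30 TGF-beta and BMP genes, -0.03 for 20 p53 targets and Cdk inhibitors and 0.04 for 18 interferon-stimulated genes, with 0 called in each. The interferon-stimulated genes had a median of 0.46 at day 3, where 0 passed either. Acvr1b, a receptor through which Nodal signals, had 0.31 at day 6, and Bmp4 -0.24. Of 16 genes of glucose metabolism 0 passed and 13 were positive, against 46.2% of all genes. The glucose transporter genes Slc2a3 and Slc2a1 had fold changes of 0.48 and 0.25, with all knockdown arrays above all controls in both. That held for 5 of the 16 genes and for 5.0% of all genes.

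The labelled cell type was checked against markers. Of 10 fibroblast markers, 9 lay above the array's median signal in all 6 day 6 arrays and none below it. For most other cell types the summed marker levels of the groups overlapped. The summed log2 level of 11 macrophage and leukocyte markers was 61.9 to 62.9 in control and 61.5 to 63.0 in the knockdown. Of these 11, 3 lay above the median in all 6 arrays and 6 below it, with Ptprc, which marks leukocytes, among those below. The 7 keratinocyte markers summed to 36.3 to 36.5 and 36.1 to 36.5. In all 6 arrays 2 of them lay above the median and 5, Krt14 and Trp63 among them, below it. The 11 trophoblast markers summed to 64.8 to 65.2 in control and 65.6 to 67.8 in the knockdown, which do not overlap. The list went both ways, with 6 positive and 5 negative and a median of 0.02, and the higher sum rests mainly on Plet1, Tfap2c and Krt18. Of the 11, 5 lay above the median in all 6 arrays and 5 below it, with Cdx2, Elf5 and Eomes among those below. The part of trophoblast markers in the epithelial values was not tested.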

How the data were processed

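Gene expression was read on 12 Affymetrix arrays, 3 per hairpin and day, of which the 6 of day 6 form the comparison. Per the submitters' processing notes, the tools were RMA and Affymetrix Expression Console (version 1.3.0.187). The deposited intensities are on a linear scale (4.71 to 13421). The log2 of each deposited intensity was taken here. The genome build of the array is not given in the sources used here. Array medians were 5.30 to 5.44 on the log2 scale, and r between day 6 arrays of a group was 0.995 to 0.997. Precision is limited by the number of arrays.

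Of 41345 probe sets, 23521 name 1 gene. The probe set with the highest mean stood for a gene, kept where at least 3 arrays reached their own 30th percentile. The test was limma 3.58.1 (R 4.3.3), two-sided, over all 12 arrays with 4 group means, 8 residual and 4.37 prior degrees of freedom. P-values were adjusted by Benjamini-Hochberg, and genes under 0.05 passed. The median 95% interval reached 0.183 to either side. On simulated arrays with 200 changed genes per size, 83.5% of changes of 0.5, 98.5% of changes of 1 and 100% of changes of 2 on the log2 scale were recovered. The simulated noise was normal and independent between arrays, with no replicate effect. In the measured arrays 7 of the 33 genes higher by 0.5 or more passed. The simulated shares therefore do not tell how many changes were missed here.

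Groups share replicate numbers. With group means removed, same-numbered day 6 arrays correlated at 0.305 to 0.373 and differently numbered ones at -0.226 to -0.0826. The numbers were therefore taken as pairs for the pair differences and the block fit, from the data and not from a label. The main test used group means without pairing, so its intervals and p-values make no allowance for the pairs. The fit with the replicate number as a block gave 6 genes higher and 0 lower.

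The text names genes of CAF-1 and the cassette, every gene past the threshold, the 20 higher and 15 lower genes with the smallest p-values and no overlap, and members of 19 gene lists with 523 measured members. Genes with a predicted name were left out. The members and lists were chosen with earlier results of these data known, so a list is described by counts and medians without a test. Alternatives covered the block, the arrays fitted, array weights, the low-signal filter, the pseudocount, the normalisation, the probe sets and the prior, and each array left out. Tables were made with Python 3.11.15 and pandas 2.3.3. Promoter windows came from RefSeq.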

Additional observations from a re-analysis of the deposited data

How the results depend on the processing

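Among 10 other ways of fitting 1 value per gene with all day 6 arrays kept, the number of higher genes stayed between 6 and 8 except with the day 6 arrays alone, where it was 2 (Nanog and Sall4, with 423 genes higher at an unadjusted p under 0.05). With all 30050 probe sets above the filter fitted together, an alternative added after the data were seen, 3 of the probe sets naming 1 gene passed (Nanog, Sall4 and the dimmer one of Lsr), with 351 such probe sets higher at an unadjusted p under 0.05, and 0 were lower. Pairing by a replicate block gave 6, losing Spint1 and no other call. Leaving out arrays gave 0 to 8 (4 without replicate 1 of both groups) genes higher, 0 to 1 lower (Olfr318, without knockdown replicate 3) and 0 to 1 whose effect differed between the days. A count added after the data were seen, of genes higher by 0.5 or more, was 33, and 27 to 54 with arrays left out. The matching count of lower genes was 0, then 1 with array weights, 1 with quantile normalisation again and 5 to 20 with arrays left out (13 without replicate 2 of both groups). No named gene past the threshold changed direction in any of the 19 alternatives. The 22 named genes whose sign turned in some alternative were past the threshold in neither fit, and their fold changes were 0.0989 or less in size. Signal near the filter limits Tdgf1 and Esrp1, whose control levels are bounds.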

Other observations

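Genes outside the lists also reached the upper tail, and those given here were chosen after their values were seen. Of 17860 genes, 33 (0.185%) were higher in the knockdown by 0.5 or more on the log2 scale, and 0 were lower by as much. In 30 of the 33 all knockdown arrays lay above all controls, against 5.0% of all genes. The 33 were picked for a large difference, so this is no separate support. The pluripotency and epithelial lists held 13 of the 33. Of the rest, Car2 and Slc35f2 passed, and the others named here did not. Fgfbp1, a carrier of fibroblast growth factors, had a fold change of 0.63, Atp12a, a proton and potassium pump, 0.61, and Aqp3, a water and glycerol channel, 0.56. Krtdap, a keratinocyte differentiation gene, had 0.50, while of 7 keratinocyte markers 2 were positive and 5 negative with a median of -0.01. Mpzl2, an epithelial adhesion gene, had 0.59, and Cldn11, a claudin, 0.66. Fetub, which encodes a secreted protease inhibitor, had 0.91. The class I histocompatibility genes H2-T10 and H2-Q5 had 0.57 and 0.56, and signal from such near-identical genes is uncertain on an array.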
